A study of Homo sapiens with 6 samples.

Results

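Chromosome 19 carries the densest collection of C2H2 zinc-finger genes in the human genome, and the accessibility of their promoters was read from ATAC-seq peak lists of PIK3CA-mutant and parental breast epithelial cells. The genes were taken by a rule that used no measured value: protein-coding genes of GENCODE release 44 on chromosome 19 whose symbol is ZNF followed by digits only, without ZNF536. The rule gave 239 genes, called members below, of 19103 autosomal protein-coding genes. Of these, 231 fell into 9 clusters, a new cluster beginning where the next member start lay over 1 Mb away, and 8 lay outside them. Each cluster is named by its first and last member.

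ATAC-seq uses the transposase Tn5 to cut accessible DNA, and the cells were MCF-10A, a non-tumorigenic human breast epithelial line. The groups were a knock-in of E545K, a helical-domain mutation of PIK3CA, the gene of a catalytic PI3K subunit, a knock-in of H1047R, a mutation of its kinase domain, and the parental line with WT PIK3CA. The 2 samples of each genotype shared 1 deposited peak list. Knock-in lines were maintained without EGF and parental cells with 20 ng/ml EGF, so that genotype and maintenance medium cannot be told apart. For the last 24 h all cells were in an assay medium with 0.2 ng/ml EGF and 1% stripped serum. The labels do not say how many clones a knock-in line stands for or whether 1 or both alleles were edited, and peak positions do not show the edited base. As a check of the label, 7 of 8 basal breast epithelial marker genes had a promoter peak in every list, while of 6 immune and endothelial markers none had one in every list and 5 had none in any.

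The lists held 89416 peaks in E545K, 106747 in H1047R and 98910 in WT, of which 2962 in E545K, 3260 in H1047R and 3189 in WT lay on chromosome 19. With 1 list per genotype there was no replicate check, no depth and no test across samples: every difference below is a difference between 3 lists. A missing peak means that none was called, not that the chromatin was closed in every cell, and fewer cells with an open promoter cannot be told apart from a less open promoter in each cell.

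Most C2H2 zinc-finger proteins of chromosome 19 pair an array of fingers that reads a DNA sequence with a KRAB domain near the amino end. The KRAB domain binds the corepressor TRIM28, which brings in histone H3 lysine 9 methylation and HP1 proteins, and many of these proteins silence transposable elements. The family grew by tandem duplication, so neighbours resemble each other in their promoters as well as in their coding sequence. In the translated canonical transcripts the members had a median of 12 fingers, with the lowest count of 1 in ZNF428 and the highest of 36 in ZNF208, and a KRAB A box pattern was found in 161 of the 239. Boxes that deviate from the pattern were not counted.

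The promoters below show how alike in sequence members could be while differing in their peaks. Each line is the 250 bases before the transcript start on the gene's strand, 5′ to 3′, from RefSeq on GRCh38.p14, with each CpG dinucleotide in capitals. ZNF93, ZNF737, ZNF66 and ZNF486 are related copies of the cluster ZNF101 to ZNF254. ZNF93 (chr19:19900696-19900945, plus strand) and ZNF737 (chr19:20565782-20566031, minus strand) had a peak in each knock-in but not in WT, ZNF66 (chr19:20776054-20776303, plus strand) had one in every list, and ZNF486 (chr19:20166964-20167213, plus strand) had none. ZNF66 was chosen for printing after its values were seen. ZNF486 was picked as the member of the cluster without a peak most like ZNF737 in these bases, among those with the same start in RefSeq.
ZNF93: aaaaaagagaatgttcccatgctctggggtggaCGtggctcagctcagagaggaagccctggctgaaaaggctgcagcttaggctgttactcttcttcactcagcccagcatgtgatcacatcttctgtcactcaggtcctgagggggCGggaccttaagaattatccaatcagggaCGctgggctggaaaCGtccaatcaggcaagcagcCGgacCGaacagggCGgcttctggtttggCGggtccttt
ZNF737: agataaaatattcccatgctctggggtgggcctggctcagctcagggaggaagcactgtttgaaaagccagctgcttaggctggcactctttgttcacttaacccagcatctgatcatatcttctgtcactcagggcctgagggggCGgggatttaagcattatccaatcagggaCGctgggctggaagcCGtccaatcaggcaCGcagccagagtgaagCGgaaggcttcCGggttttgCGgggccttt
ZNF66: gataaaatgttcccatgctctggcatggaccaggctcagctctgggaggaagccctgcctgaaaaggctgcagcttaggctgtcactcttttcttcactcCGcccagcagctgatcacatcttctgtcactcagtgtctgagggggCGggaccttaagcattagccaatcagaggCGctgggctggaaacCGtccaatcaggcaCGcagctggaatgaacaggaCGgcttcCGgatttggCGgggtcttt
ZNF486: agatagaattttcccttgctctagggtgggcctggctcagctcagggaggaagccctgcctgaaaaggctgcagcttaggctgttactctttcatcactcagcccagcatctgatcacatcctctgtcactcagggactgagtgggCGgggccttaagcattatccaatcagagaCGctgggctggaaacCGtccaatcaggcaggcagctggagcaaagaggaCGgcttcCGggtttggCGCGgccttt
Over a global alignment of these 250 bases, ZNF737 and ZNF486 were 86.8% identical, ZNF93 and ZNF486 87.0%, ZNF93 and ZNF66 85.8% and ZNF737 and ZNF93 83.4%. As ZNF486 was picked for its likeness to ZNF737, its nearness to the copies with a peak was fixed by the choice. Over all pairs of the cluster, the median identity was 75.3% between members with a peak in every list. It was 68.8% between members with none and 71.3% between a member of each kind. The 4 windows held between 7 and 8 CpG dinucleotides each.

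The next set shows members outside that cluster. ZNF442 (chr19:12365684-12365933, minus strand) had a peak in each knock-in but not in WT, and ZNF569 (chr19:37467445-37467694, minus strand) one in E545K and WT and none in H1047R. ZNF787 (chr19:56121296-56121545, minus strand) and ZNF561 (chr19:9621233-9621482, minus strand) were among the members with the strongest promoter peaks. ZNF345 (chr19:36850626-36850875, plus strand), chosen after its values were seen, differed most in strength between the knock-ins and WT. ZNF528 (chr19:52397599-52397848, plus strand) had no peak in any list. It was picked for the highest CpG ratio among such members with the same start in RefSeq.
ZNF442: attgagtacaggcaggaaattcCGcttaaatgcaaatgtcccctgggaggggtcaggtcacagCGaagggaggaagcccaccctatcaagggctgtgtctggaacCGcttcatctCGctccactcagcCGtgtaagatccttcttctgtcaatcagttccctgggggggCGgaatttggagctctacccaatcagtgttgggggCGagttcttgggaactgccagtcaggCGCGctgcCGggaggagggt
ZNF569: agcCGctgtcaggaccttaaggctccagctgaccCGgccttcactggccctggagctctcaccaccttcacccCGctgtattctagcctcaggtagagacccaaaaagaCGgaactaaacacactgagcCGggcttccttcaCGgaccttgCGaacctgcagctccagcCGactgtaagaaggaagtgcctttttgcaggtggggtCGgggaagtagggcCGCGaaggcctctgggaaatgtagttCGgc
ZNF787: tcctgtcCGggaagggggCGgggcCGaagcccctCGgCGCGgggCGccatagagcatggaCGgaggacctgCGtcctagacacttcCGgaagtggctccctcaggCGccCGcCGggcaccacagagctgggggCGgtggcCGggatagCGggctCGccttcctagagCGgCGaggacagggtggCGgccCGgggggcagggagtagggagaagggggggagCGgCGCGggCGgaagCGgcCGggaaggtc
ZNF561: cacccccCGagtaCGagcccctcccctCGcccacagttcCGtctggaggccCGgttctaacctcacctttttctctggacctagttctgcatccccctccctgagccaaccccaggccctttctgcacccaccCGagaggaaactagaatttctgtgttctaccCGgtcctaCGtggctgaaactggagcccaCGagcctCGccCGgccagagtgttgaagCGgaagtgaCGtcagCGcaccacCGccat
ZNF345: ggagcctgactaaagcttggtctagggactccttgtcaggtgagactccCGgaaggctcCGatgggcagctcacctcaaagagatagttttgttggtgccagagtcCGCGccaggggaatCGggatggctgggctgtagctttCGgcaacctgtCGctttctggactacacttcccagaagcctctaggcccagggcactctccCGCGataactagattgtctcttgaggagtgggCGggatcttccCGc
ZNF528: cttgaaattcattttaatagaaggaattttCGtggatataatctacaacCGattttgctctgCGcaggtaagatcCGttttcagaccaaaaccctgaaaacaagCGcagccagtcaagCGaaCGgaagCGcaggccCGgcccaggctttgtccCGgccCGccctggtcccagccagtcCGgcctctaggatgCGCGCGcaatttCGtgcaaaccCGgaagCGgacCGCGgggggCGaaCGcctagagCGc
ZNF787 held 27 CpG dinucleotides and ZNF528 held 23, against 10 in ZNF442 and 11 in ZNF345. Because ZNF528 was picked by its CpG content, these few windows cannot show whether CpG content goes with a peak.

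Most members had an accessible promoter. A promoter was the canonical start with 1 kb on either side, and it counted as open in a list where a peak overlapped it by at least 1 bp. By this measure 181 members were open in E545K, 177 in H1047R and 176 in WT. In all, 168 members (70.3%) were open in every list, 18 (7.53%) in some lists and 53 (22.2%) in none, beside 65.5% of all autosomal coding genes in every list, 4.55% in some and 30% in none. The other 1237 coding genes of chromosome 19 were open in every list in 59.5% of cases, and the 226 ZNF genes of other autosomes in 87.6%. Between the members in the cluster spans lay 182 other coding genes, of which 48.9% were open in every list and 47.3% in none.

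**Figure D1:**
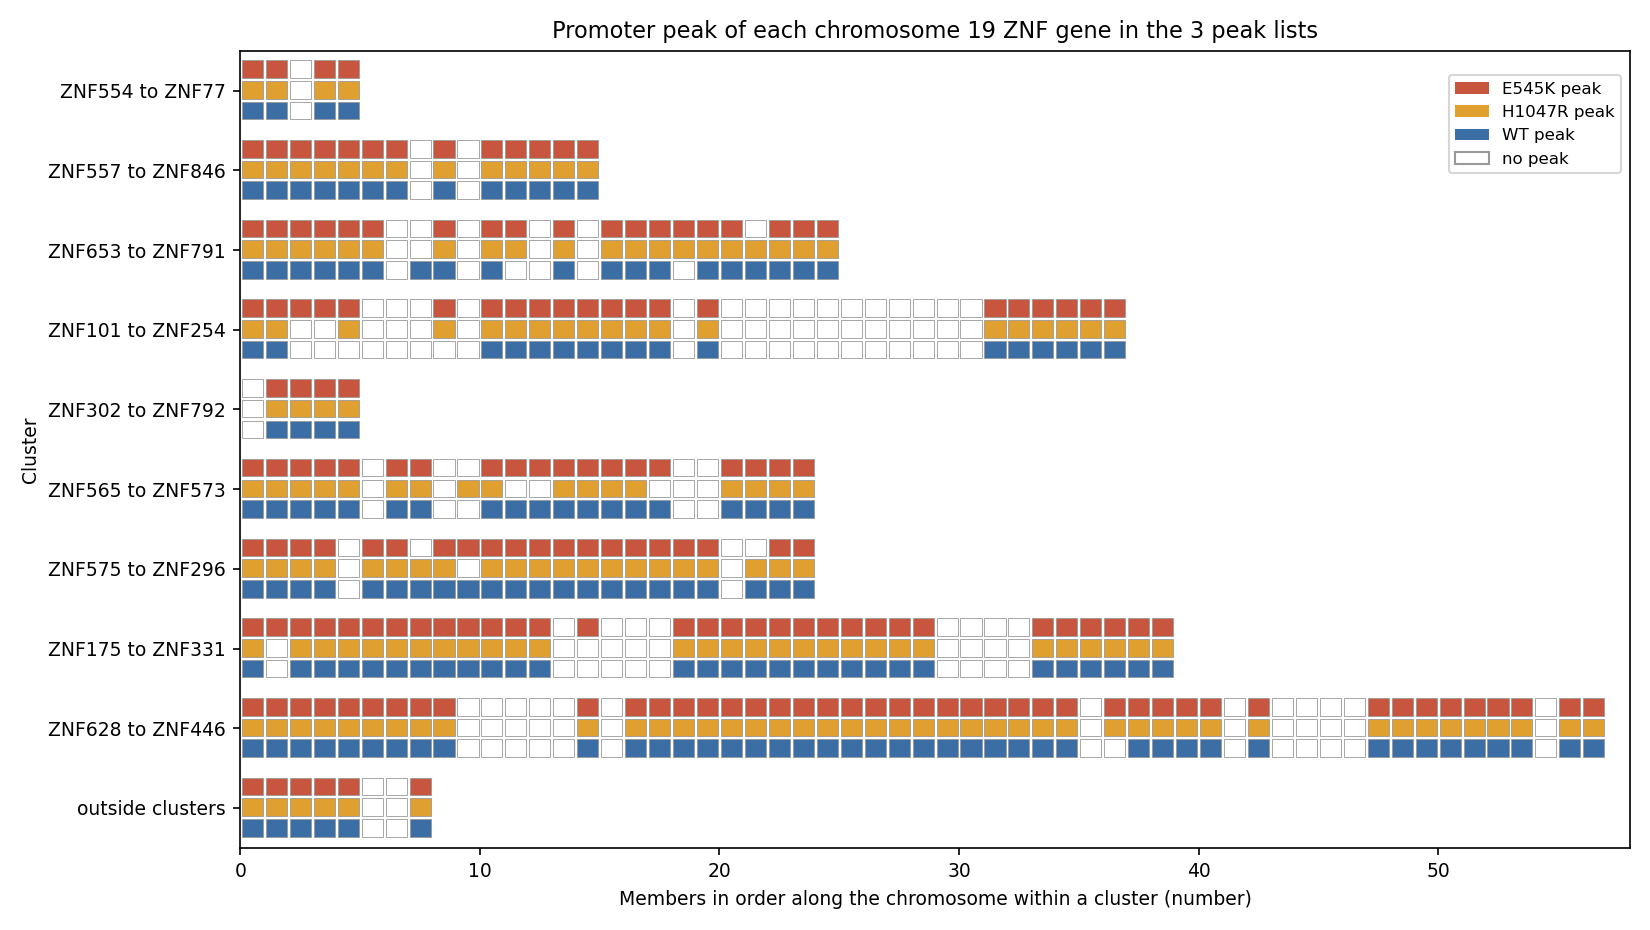
Promoter peaks of the 239 members, 1 column per gene in chromosomal order within its cluster (horizontal axis, position in the cluster) and 3 cells per gene, from top to bottom E545K, H1047R and WT, filled where a peak was called. Members without a peak stand in runs, the longest being 11 empty columns in ZNF101 to ZNF254, and partly filled columns mark the 18 members open in some lists.

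The clusters differed in how many members were open. ZNF557 to ZNF846 had 13 of 15 members open in every list and 2 in none, and ZNF575 to ZNF296 had 19 of 24 open in every list, 3 in some and 2 in none. ZNF628 to ZNF446, which reaches toward the end of the long arm, had 43 of its 57 members open in every list, 1 in some and 13 in none. ZNF175 to ZNF331 had 29 of 39 open in every list, 2 in some and 8 in none. In ZNF653 to ZNF791 17 of 25 were open in every list, 4 in some and 4 in none, and in ZNF565 to ZNF573 16 of 24 in every list, 4 in some and 4 in none. The 2 clusters of 5 members, ZNF554 to ZNF77 and ZNF302 to ZNF792, each had 4 open in every list and 1 in none, and of the 8 members outside clusters 6 were open in every list and 2 in none. ZNF101 to ZNF254, which flanks the centromere on the short arm side (chr19:19668839-24087187), stood lowest with 17 of 37 open in every list, 4 in some and 16 in none. Without that cluster 151 of 202 members (74.8%) were open in every list and 18.3% in none.

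**Figure D2:**
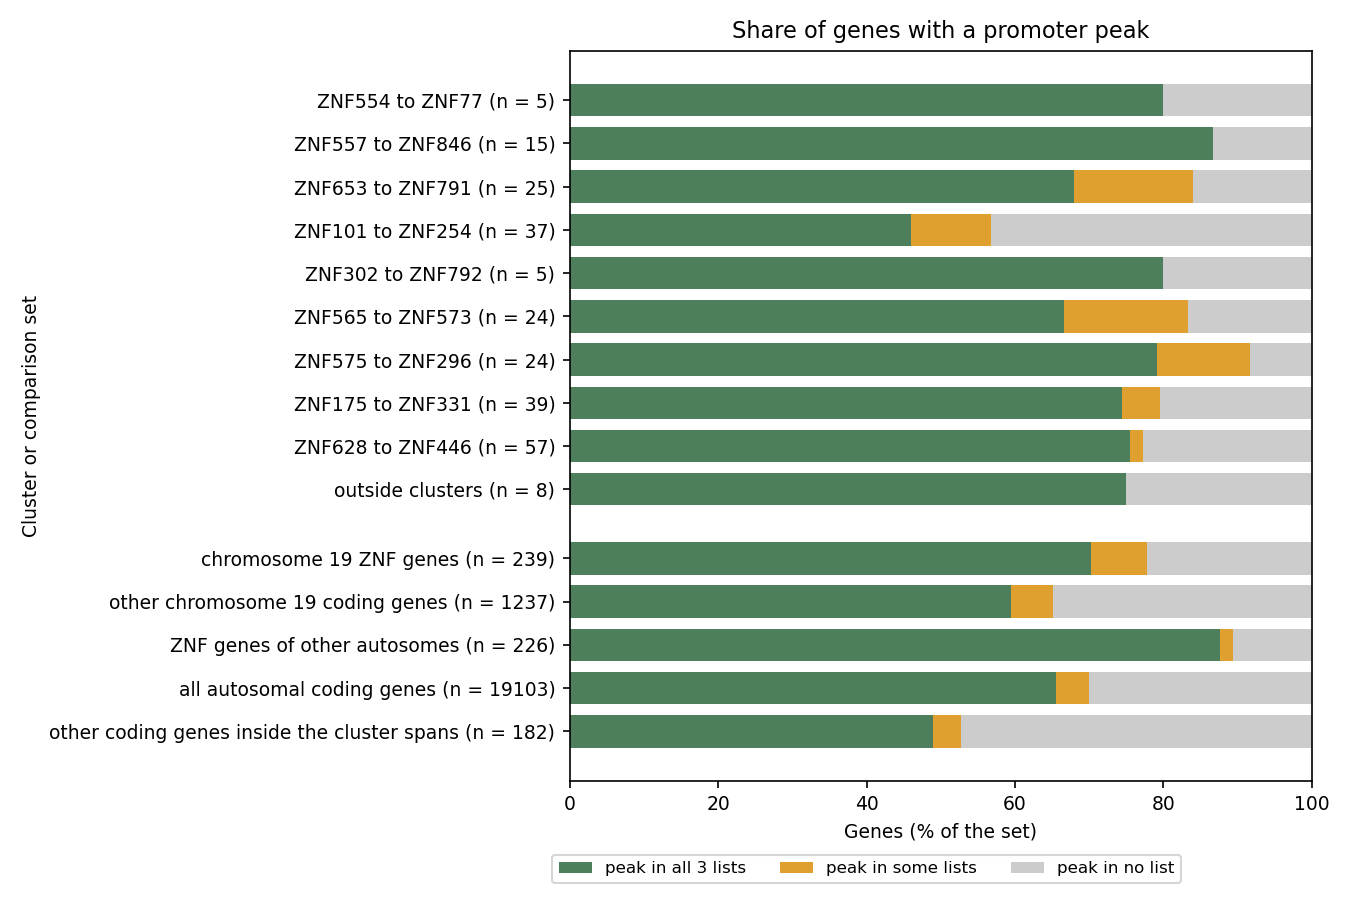
Share of genes (horizontal axis, % of the set) with a promoter peak in all 3 lists (green), in some (orange) and in none (grey), for each cluster above and for the comparison sets under them. ZNF101 to ZNF254 has the smallest green bar at 17 of 37 members, while the ZNF genes of other autosomes reach 87.6%.

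Members without a peak in any list stood side by side. The longest run held 11 members over 1.28 Mb of ZNF101 to ZNF254 (chr19:21836182-23117025, hg38): ZNF43, ZNF208, ZNF257, ZNF676, ZNF729, ZNF98, ZNF492, ZNF99, ZNF723, ZNF728 and ZNF730. Between the first and the last of these starts 0 peaks of any kind had their summit in E545K, in H1047R or in WT. ZNF100 and ZNF724, the members on either side, were open in every list. The next runs were ZNF582, ZNF583, ZNF667, ZNF471 and ZNF470 in ZNF628 to ZNF446 (0.174 Mb), and ZNF415, ZNF347, ZNF665 and ZNF677 in ZNF175 to ZNF331 (0.122 Mb). ZNF582 is known for promoter methylation in cervical carcinoma. In ZNF565 to ZNF573 the longest run was the pair ZNF570 and ZNF793, and in the remaining clusters members without a peak, such as ZNF556, ZNF177, ZNF439, ZNF302 and ZNF404, stood singly.

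Sequence that occurs more than once in the genome can lower the number of reads placed there. The share of 32-base words of the promoter window found once in the genome had a median of 78.3% in ZNF101 to ZNF254. In that cluster it was 82.5% for the 17 members open in every list, 77.6% for the 4 open in some and 75.5% for the 16 open in none. The ranges overlapped, from 66.9 to 88.1% in members open in every list and from 64.8 to 98.3% in members open in none. Outside the cluster the median was 95.7% in members open in every list and 93.6% in those open in none. The part of repeated sequence in the missing peaks was not tested.

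Where the canonical start of a member had no peak, another start rarely had one. Of the 53 members with no peak at the canonical start, 50 had none at any annotated transcript start. The exceptions were ZNF404, with a peak at another start in every list, ZNF570, in E545K and WT, and ZNF114, in H1047R. The nearest peak to the start of these 53 members lay at a median distance of 55740 bp in E545K, 65857 bp in H1047R and 38426 bp in WT, and 5 of the 53 had a peak of any list within 5 kb. The same counts were not made over all coding genes, so nothing particular to the members is read from them.

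The knock-in and WT comparison asks which members gained or lost a called promoter peak with the PIK3CA mutations. A knock-in peak without a WT peak was found at 10 members, 5 of them in both knock-ins, and a WT peak without a knock-in peak at 1. The 5 members open in both knock-ins alone were ZNF878, ZNF442, ZNF93, ZNF737 and ZNF671, and the 1 open in WT alone was ZNF69. Over all autosomal coding genes the shares were 2.68% for either knock-in without WT, 0.827% for both knock-ins without WT and 0.571% for WT alone. The count for WT alone was 4 when only peaks with an area of 400 or more were kept and 2 with lists of equal length. By pair, 9 members were open in E545K but not WT (1.72% of all genes) and 4 in WT but not E545K (1.41%). For H1047R, 6 members were open there but not in WT (1.79%) and 5 in WT but not H1047R (1.03%). Between the knock-ins, 8 members were open in E545K and not in H1047R (1.35%) and 4 in H1047R and not in E545K (1.80%).

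The 10 members with a knock-in peak alone included 4 in the first part of ZNF101 to ZNF254. ZNF93, a repressor of LINE-1 retrotransposons, had a promoter peak of area 2234 in E545K and 520 in H1047R and none in WT. ZNF737, its relative shown above, had areas of 1410 in E545K and 1832 in H1047R and none in WT. ZNF253 had an area of 826 and ZNF506 of 461 in E545K, with no peak in H1047R or WT. The area is the authors' value for the surface under the peak caller's curve, which grows with width and height, and it is read here within a list. Around ZNF737 the nearest WT peak lay 210249 bp from the start, and around ZNF93 123830 bp, the farthest of the 18 members.

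In ZNF653 to ZNF791 the lists disagreed in both directions. ZNF442 had areas of 565 in E545K and 1997 in H1047R, against no peak in WT. ZNF878 had 697 in E545K and 464 in H1047R, again without a WT peak. ZNF69 went the other way, with an area of 832 in WT and no peak in either knock-in. ZNF709 was open in H1047R at 415 and in WT at 220, close to the smallest area of 200 that any list holds, and not in E545K. The missing E545K peak of ZNF709 is thus set beside peaks near the limit of the lists. Another coding start without a symbol lies 6 bp from that of ZNF878 and 0 bp from that of ZNF709, so these peaks cannot be given to the member alone.

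In ZNF565 to ZNF573 peaks were missing in each of the lists. ZNF829 and ZNF568 start 41 bp apart on opposite strands and share 1 peak, of area 1148 in E545K and 260 in WT, with none in H1047R. ZNF568, whose mouse counterpart silences a placental Igf2 promoter, and ZNF829 therefore count as 1 observation. ZNF569 had areas of 1190 in E545K and 638 in WT and no H1047R peak. ZNF790 had a peak of area 741 in H1047R alone at its canonical start, and with any transcript start counted it was open in every list.

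The remaining members of this kind were scattered. In ZNF575 to ZNF296, ZNF155 had areas of 808 in H1047R and 567 in WT and no peak in E545K. ZNF222, which starts 25 bp from a coding gene without a symbol, had 351 in E545K and 441 in WT and none in H1047R. ZNF229 had 281 in H1047R and 619 in WT and none in E545K. All 3 were open in WT and in 1 knock-in. In ZNF175 to ZNF331, E545K alone had a peak at ZNF577 (865) and at ZNF880 (554). ZNF671, known for promoter methylation in carcinomas, had areas of 518 in E545K and 233 in H1047R and none in WT.

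**Figure D3:**
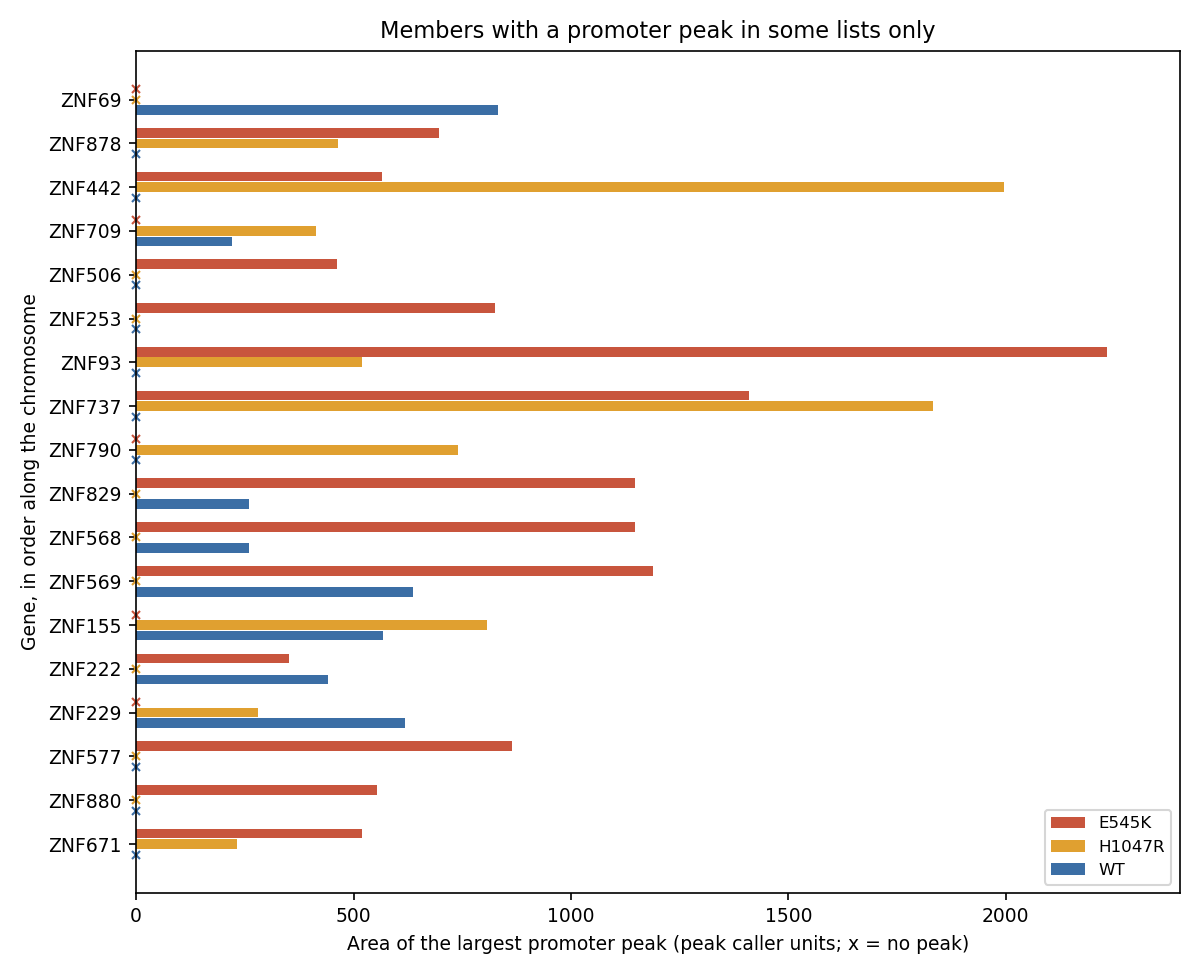
Area of the largest promoter peak (horizontal axis, units of the peak caller) for the 18 members open in some lists, in chromosomal order from top to bottom, with 1 bar per list and a cross where no peak was called. The longest bars belong to ZNF93 in E545K, ZNF442 in H1047R and ZNF737 in both knock-ins, and no WT bar exceeds 832.

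These peaks were small beside the typical promoter peak of members open in every list. The 18 members had 28 different peaks, the one shared by ZNF829 and ZNF568 counted once in a list, with areas from 220 to 2234 and a median of 593. All 12 in E545K, all 9 in H1047R and all 7 in WT lay below the median area of members open in every list, which was 2480 in E545K, 2733 in H1047R and 2662 in WT. In the list without a peak the nearest peak lay between 6632 bp (ZNF878, WT) and 210249 bp (ZNF737, WT) from the start. No missing peak was therefore one that ended just short of the window.

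Open member promoters were of modest strength. The 168 members open in every list were ranked by the area of their largest promoter peak among the 12509 genes open in every list, on a scale of 0 to 100 within each list. Their median rank was 35.8 in E545K, 32.1 in H1047R and 33.7 in WT, below the middle of the scale in each list. Ranks over 75 were held by 10 members in E545K, 10 in H1047R and 17 in WT, and ranks under 25 by 58 in E545K, 63 in H1047R and 64 in WT. On the other autosomes ZNF genes had medians of 46.6 in E545K, 43.1 in H1047R and 45.3 in WT, and the other genes of chromosome 19 had 45.9 in E545K, 48.0 in H1047R and 50.2 in WT. Member peaks had a median width of 1122.5 bp in E545K, 1169 bp in H1047R and 1126 bp in WT, against 1467 bp in E545K, 1525 bp in H1047R and 1467 bp in WT for all genes. Their summits lay close upstream of the start, at a median of -48 bp in E545K, -54.5 bp in H1047R and -47.5 bp in WT.

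The strongest member was ZNF787, in ZNF628 to ZNF446, with areas of 8396 in E545K, 8839 in H1047R and 9252 in WT and ranks of 94.1 in E545K, 94.0 in H1047R and 95 in WT. It led every list, and its peak was also the widest of the members in each. ZNF524, known to bind telomeric DNA, had ranks of 84.9 in E545K, 91.1 in H1047R and 91.8 in WT. ZNF473, a factor of histone pre-mRNA processing that lies outside the clusters, had 85.2 in E545K, 84.8 in H1047R and 88.5 in WT. ZNF8, a KRAB protein gene, had 80.6 in E545K, 80.8 in H1047R and 83.5 in WT. None of these 4 moved by 10 points against WT. ZNF561 had 93.2 in E545K and 91.0 in WT, but 66.0 in H1047R. ZNF473 starts 633 bp from VRK3 and ZNF524 starts 771 bp from FIZ1, within the windows of these members. In every list the lowest member was ZNF358, with an area of 274 in E545K, 341 in H1047R and 456 in WT. Peaks were shared with another coding gene at 21 members in each list, and with another member at 8 in E545K, 6 in H1047R and 8 in WT.

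By cluster, the highest median ranks stood in ZNF554 to ZNF77, with 59.8 in E545K, 65.7 in H1047R and 64.2 in WT over 4 open members. The lowest of the larger clusters was ZNF575 to ZNF296, with 12.7 in E545K, 14.6 in H1047R and 15.6 in WT over 19 open members. That cluster was thus mostly open but with small peaks, although its span held the most peaks per Mb of any cluster, 63.5 in E545K, 74.5 in H1047R and 69.3 in WT. ZNF302 to ZNF792 was also low, at 18.2 in E545K, 12 in H1047R and 19.5 in WT over 4 open members. ZNF565 to ZNF573 had 45.9 in E545K, 45.8 in H1047R and 38.7 in WT. In the other large clusters the medians ran from 29.6 (ZNF557 to ZNF846) to 40.8 (ZNF101 to ZNF254) in E545K, from 26.1 (ZNF557 to ZNF846) to 37.3 (ZNF653 to ZNF791) in H1047R and from 29.1 (ZNF557 to ZNF846) to 41.0 (ZNF653 to ZNF791) in WT. Within a cluster the leading members were ZNF77, ZNF561, ZNF653, ZNF724, ZNF181, ZNF565, ZNF575, ZNF888 and ZNF787, in chromosomal order of the clusters, and their median ranks ran from 56.0 to 94.1.

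Moves in area rank between the lists, counted from 10 points, were about as frequent in members as in all genes or rarer, except for members higher in E545K than in H1047R. For E545K against WT, 10 of 168 members were higher (7.83% of all genes) and 6 lower (6.77%), which is 5.95% of the members higher and 3.57% lower. For H1047R against WT, 5 were higher (7.5%) and 11 lower (6.70%), which is 2.98% of the members higher and 6.55% lower. For E545K against H1047R, 18 were higher (7.0%) and 5 lower (6.04%), which is 10.7% of the members higher and 2.98% lower. Of the 18, 8 were among the 43 members of ZNF628 to ZNF446 open in every list, and 5 among the 13 of ZNF557 to ZNF846. Genes were also ranked by summit value, the highest −log10 p of a summit among the peaks overlapping a promoter. By summit value in place of area the counts were 22 higher and 13 lower for E545K against WT (9.84% and 10.0% of all genes), 14 higher and 14 lower for H1047R against WT (9.20% and 8.43%), and 17 higher and 11 lower for E545K against H1047R (7.97% and 7.89%). At the limit of 10 points, the larger number of falls than rises in H1047R was thus seen by area and not by summit value. By area the median move of the members was 0.25 points for E545K minus WT, -1.46 for H1047R minus WT and 1.12 for E545K minus H1047R, beside -0.54 for E545K minus WT, -0.32 for H1047R minus WT and -0.36 for E545K minus H1047R over all genes. By summit value the median move for H1047R minus WT was still below 0, at -1.63 in members beside -0.11 over all genes. The comparisons of the knock-ins with WT share the WT list.

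Against WT, ZNF345 moved farthest by area of the members open in every list, and it did so in each knock-in. Its promoter peak had areas of 3624 in E545K and 3627 in H1047R, against 1100 in WT, and ranks of 57.4 in E545K and 47.8 in H1047R, against 9.59 in WT. The move was 47.8 points in E545K and 38.2 in H1047R. The peak was 1693 bp wide in E545K and 1659 bp in H1047R, against 959 bp in WT. It reached 1201 bp before the start in E545K and 1202 bp in H1047R, against 681 bp in WT. Its summit lay 574 bp before the start in E545K and 553 bp in H1047R, against 72 bp in WT, so that the knock-in peaks differed from the WT peak in place as well as in area. By summit value the move was 33.7 points in E545K and 26 in H1047R, and ZNF558 then moved farther in H1047R, by -44.7. The ZNF345 start (position 36850876) lies 18 bp from that of ENSG00000291239, a coding gene without a symbol, so the peak cannot be given to 1 of the genes.

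ZNF100, ZNF738 and ZNF14, all in ZNF101 to ZNF254, were also higher in each knock-in than in WT. ZNF100 had ranks of 33.9 in E545K and 34.5 in H1047R, against 18.1 in WT. ZNF738 had 47.5 in E545K and 46.0 in H1047R, against 34.0 in WT. ZNF14 had 30.2 in E545K and 28.2 in H1047R, against 17.3 in WT. These values of the knock-ins lay close together. Higher by 10 points in E545K alone were 6 members. The largest of these moves were those of ZNF426 (29.6 in E545K, against 14.4 in WT), ZNF765 (54.8 in E545K, against 40.6 in WT) and ZNF543 (45.9 in E545K, against 32.4 in WT), and the others, named to complete the count after their values were seen, were ZNF85, ZNF468 and ZNF547. By summit value ZNF543 was higher in H1047R as well, by 13.5 points. ZNF562 was the 1 member higher by 10 points in H1047R alone, at rank 33.4 against 14.4 in WT.

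ZNF559 was lower in each knock-in than in WT, with areas of 643 in E545K and 1343 in H1047R against 2407 in WT, and ranks of 5.32 in E545K and 11.3 in H1047R, against 29.1 in WT. ZNF428, with a single finger, had areas of 760 in E545K, 2567 in H1047R and 2632 in WT, so that the low value was that of E545K. ZNF576 likewise had ranks of 63.9 in E545K, 76.3 in H1047R and 85.0 in WT, with E545K again the lowest. ZNF563 was at 8.66 in E545K against 23 in WT, and ZNF557 at 40.2 in E545K against 54.4 in WT. In H1047R the lowest relative to WT was ZNF558, which in human neural progenitors represses the mitochondrial quality gene SPATA18. Its areas were 4841 in E545K, 3390 in H1047R and 5718 in WT, and its rank in H1047R was 43.9 against 78.8 in WT. ZNF561 had areas of 8098 in E545K, 4730 in H1047R and 7815 in WT, and ZNF552 had 2713 in E545K, 1782 in H1047R and 3037 in WT. ZNF581 was at rank 45.7 in H1047R against 60.7 in WT. For ZNF558, ZNF561 and ZNF552 the E545K area rank stood near that of WT, and that of H1047R alone was low. The ZNF561 peak was 1743 bp wide in H1047R, against 2731 bp in E545K and 2716 bp in WT. Its move in H1047R was -25.0 points by area and -12.1 by summit value. With the areas of all peaks in the window summed, ZNF552 moved by -14.2 points in H1047R, against -23.1 with the largest peak. By summit value ZNF552 and ZNF581 moved by -8.70 and -8.90 points in H1047R, short of the 10 counted. ZNF558 starts 73 bp from MBD3L1, ZNF559 starts 162 bp from the joined gene ZNF559-ZNF177 and ZNF576 starts 461 bp from IRGQ.

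**Figure D4:**
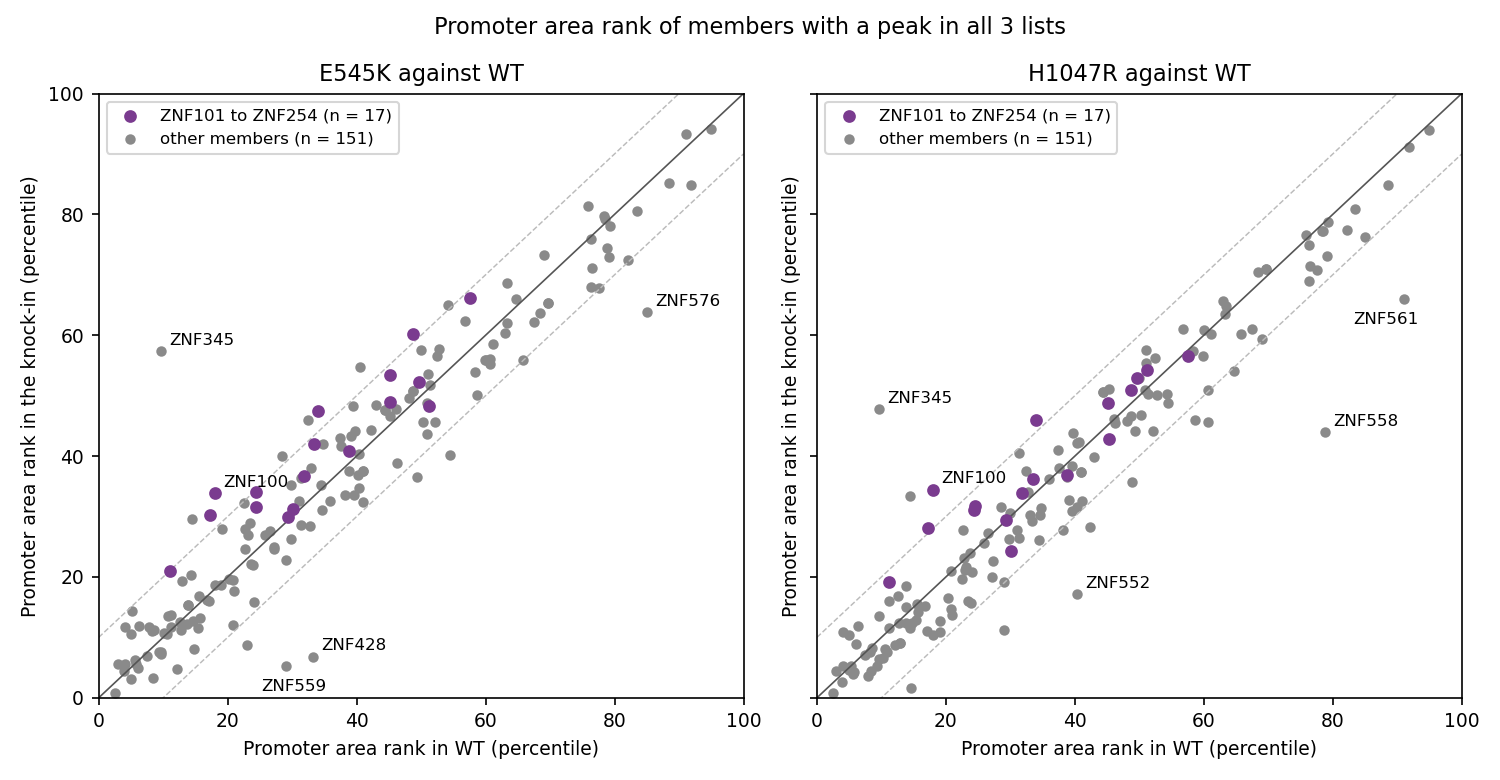
Promoter area rank (percentile among 12509 genes) of the 168 members open in every list, in E545K (left panel) and H1047R (right panel) on the vertical axis against WT on the horizontal axis, with dashed lines at 10 points from the diagonal. ZNF345 lies far above both diagonals, ZNF558 and ZNF561 below that of H1047R, and the 17 purple points of ZNF101 to ZNF254 lie mostly above the E545K diagonal.

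Members of ZNF101 to ZNF254 leaned to the knock-in side by presence and by rank, and those of ZNF565 to ZNF573 by rank. Of its 37 members, 21 were open in E545K, 19 in H1047R and 17 in WT, and each member open in WT was open in both knock-ins. Among its 17 members open in every list, 16 had a higher rank in E545K than in WT and 13 in H1047R than in WT, with a median move of 8.28 points in E545K and 3.12 in H1047R. The share with a higher rank than in WT was thus 94.1% in E545K, beside 45.7% of the 151 members outside the cluster and 44.4% of all genes. In H1047R it was 76.5%, beside 31.8% of the members outside the cluster and 46.8% of all genes. ZNF565 to ZNF573 leaned the same way, with 12 of its 16 members open in every list (75%) higher in E545K than in WT and 14 (87.5%) higher in H1047R than in WT, and median moves of 3.73 points in E545K and 3.79 in H1047R. Outside both clusters the share was 42.2% of 135 members in E545K and 25.2% in H1047R. Some of the other clusters leaned the opposite way. In ZNF557 to ZNF846, 1 of 13 members open in every list was higher in H1047R than in WT, with a median move of -5.70 points. In E545K 6 of these 13 were higher, with a median move of -0.32. In ZNF575 to ZNF296, 4 of 19 were higher in E545K and 6 in H1047R, with median moves of -3.80 in E545K and -2.47 in H1047R. In ZNF101 to ZNF254 the exception in E545K was ZNF91, a repressor of SVA retrotransposons, with ranks of 48.3 in E545K, 54.3 in H1047R and 51.2 in WT. Moves in E545K ran from -2.85 to 15.8 points and 4 of the 17 reached 10, while in H1047R they ran from -5.92 to 16.4 and 3 reached 10. Besides its ZNF members the span of ZNF101 to ZNF254 holds 3 other coding genes, 2 of them open in every list, with a median move of 4.07 points in either knock-in. The span of ZNF565 to ZNF573 holds 8 other coding genes, 7 of them open in every list. Their median moves were 4.2 points in E545K and 3.5 in H1047R, about as large as those of the members there. One of them, ENSG00000291239, starts 18 bp from ZNF345. By summit value in place of area the median moves of ZNF101 to ZNF254 were 12.5 in E545K and 9.95 in H1047R. All clusters named here were singled out after their values were seen. Both comparisons use the same WT list, and the part of the repeated promoter sequence of ZNF101 to ZNF254, given above, was not tested.

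Peaks were sparser where the members lie. The 9 cluster spans, 16.7 Mb in all, held 34.4 peaks per Mb in E545K, 38.2 in H1047R and 36.1 in WT, against 57.0 in E545K, 62.5 in H1047R and 61.7 in WT over the rest of chromosome 19. ZNF101 to ZNF254 held 18.8 per Mb in E545K, 23.8 in H1047R and 18.3 in WT. Not every span was sparse, as ZNF575 to ZNF296 held 63.5 in E545K, 74.5 in H1047R and 69.3 in WT, above the rest of the chromosome. Inside gene bodies and outside all promoter windows, 47 of 239 members had a peak in E545K (19.7%, beside 55.1% of all genes), 61 in H1047R (25.5%, beside 60% of all genes) and 50 in WT (20.9%, beside 59.2% of all genes). The median gene length was 25199 bp in members and 27877 bp in all genes. A peak over the longest coding exon, which in these genes usually encodes the finger array, was found at 5 members in each list (2.09%), beside 15.7% of all genes in E545K, 14.4% in H1047R and 14.4% in WT. This exon had a median length of 1529 bp in members and 307 bp in all genes. Once peaks reaching a promoter window were set aside, 3 members were left in E545K (ZNF714, ZNF565 and ZNF296), 4 in H1047R (these and ZNF582) and 2 in WT (ZNF565 and ZNF805). Those are 1.26% of members in E545K, 1.67% in H1047R and 0.837% in WT, beside 4.77% of all genes in E545K, 3.84% in H1047R and 3.93% in WT.

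Members with and without a peak differed less in CpG content than genes at large. CpG content was taken as observed over expected CpG from 250 bases before to 50 after the start. Its median was 0.794 in members open in every list, 0.708 in those open in some and 0.657 in those open in none, beside 0.857 for all genes open in every list and 0.321 for those open in none. Among promoters with a ratio under 0.6, 29 of 51 members (56.9%) were open in every list, beside 25.9% of all genes. Between 0.6 and 0.8 the shares were 70.5% of members and 75.8% of all genes, and from 0.8 upward 77.0% of members and 87.9% of all genes. In ZNF101 to ZNF254 the ratio was under 0.6 in 28 of 37 members, with a median of 0.452 in members open in every list and 0.480 in those open in none. There, 15 of 17 members open in every list had a ratio under 0.6, as had 10 of 16 open in none. Outside it the median was 0.802 in members open in every list and 0.781 in those open in none. The KRAB A box pattern was found in 62.5% of members open in every list, 77.8% of those open in some and 79.2% of those open in none. The pattern asks for fixed residues and misses boxes of another form. It matched 2 of 24 members in ZNF575 to ZNF296, a cluster with 19 members open in every list. How far these shares depend on the pattern was not tested.

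**Figure D5:**
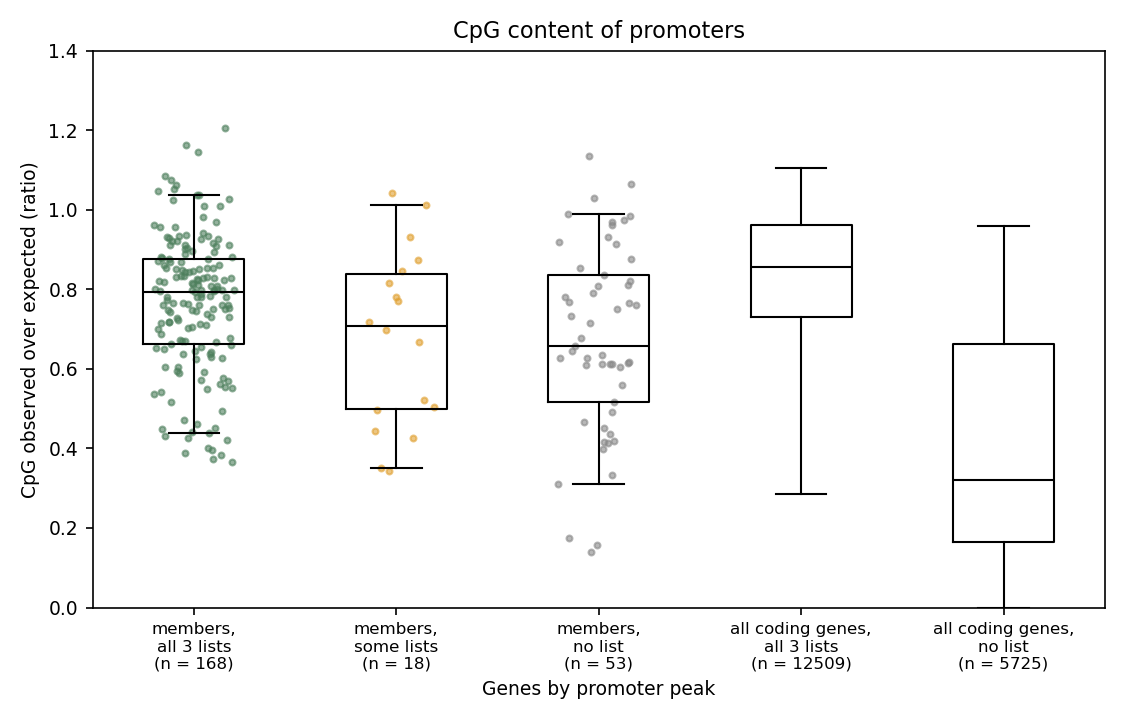
CpG observed over expected (vertical axis, ratio) of promoters by presence of a peak, for members (3 boxes on the left, 1 point per gene) and for all coding genes (2 boxes on the right); the line is the median, the box the quartiles and the whiskers the 5th and 95th percentiles. Members open in none have a median of 0.657 while all genes open in none have 0.321.

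Short words known as factor motifs were searched on both strands of the same 300 bases. A match is a description of the letters. CCGGAAG, the core word of ETS factors, was present in 43.9% of members beside 14.2% of all coding genes, and in 43.5% of members open in every list beside 45.3% of those open in none. CCAAT was found in 51.9% of members and 35.7% of all genes, and GGGCGG, the GC box, in 69.0% of members and 61.7% of all genes. The YY1 word AANATGGC stood at 13.0% of members and 8.11% of all genes, and the NRF1 motif at 12.1% of members and 8.47% of all genes. Among genes open in every list, GGGCGG was rarer in members, at 69.6% beside 75.1% of all genes. The NRF1 motif was about equal there, at 11.9% beside 12.1%. CCGGAAG (43.5% beside 19.8%), CCAAT (50.6% beside 36.3%) and the YY1 word (13.7% beside 10.5%) stayed more frequent in members. ACTACAA, part of the ZNF143 motif, was in 5.86% of members and 3.0% of all genes, and TGANTCA, the AP-1 word, in 5.44% of members and 5.37% of all genes. TATAAA was rarer in members, at 2.93% beside 9.74% of all genes. TGACGTCA, the cyclic AMP response word, was found in 9 members (3.77%, beside 2.72% of all genes), and all 9 were open in every list, as were 84.2% of all genes with the word. They were ZNF266, ZNF426, ZNF121, ZNF561 and ZNF562 in ZNF557 to ZNF846, ZNF875 in ZNF565 to ZNF573, and ZNF460, ZNF543 and ZNF547 in ZNF628 to ZNF446, and the word can be read near the end of the ZNF561 line above. Of the other words, ACTACAA was in 7.74% of members open in every list and 1.89% of those open in none. The NRF1 motif was in 11.9% of members open in every list and 17.0% of those open in none, and TATAAA in 2.38% of members open in every list and 5.66% of those open in none.

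The corepressor genes through which KRAB proteins act had accessible promoters in all 3 genotypes. All 16 listed genes were open in every list, beside 65.5% of all autosomal coding genes. The 16 had a median rank of 60.6 in E545K, 57.4 in H1047R and 55.1 in WT. TRIM28, the scaffold that binds KRAB domains and itself a gene of chromosome 19, had ranks of 85.6 in E545K, 90.1 in H1047R and 91.3 in WT. Of the enzymes, SETDB1, the histone H3 lysine 9 methyltransferase, had 22.7 in E545K, 33.8 in H1047R and 31.5 in WT, a move of -11.2 points for E545K minus H1047R. HDAC2, a histone deacetylase, was higher in both knock-ins, at 68.9 in E545K and 76.1 in H1047R against 54.7 in WT. DNMT1, the maintenance DNA methyltransferase, was lower in both, at 19.5 in E545K and 25 in H1047R against 36.6 in WT. Among the HP1 genes, CBX5 had 96.7 in E545K, 97.2 in H1047R and 98.1 in WT, and CBX1 had 29.8 in E545K, 24.6 in H1047R and 30.2 in WT. No other listed gene, among them ATF7IP, UHRF1, HDAC1, CHD3, CHD4, MORC2 and the HUSH genes TASOR, MPHOSPH8 and PPHLN1, moved by 10 points against WT. That is 1 of 16 higher and 1 of 16 lower in each knock-in. Over all genes the shares were 7.83% higher and 6.77% lower in E545K, and 7.5% higher and 6.7% lower in H1047R.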

How the data were processed

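ATAC-seq libraries of 6 MCF-10A samples, 2 per genotype, were represented by 3 peak lists, 1 per genotype, which the labels assign to both samples of a genotype. Per the submitters' processing notes, the tools included Trim Galore 0.4.0, cutadapt, FastQC, SAMtools and Genrich 0.6.1, with build hg38. Which aligner was used was not given in the sources used here. Each deposited peak has a signal value, the area enclosed by the caller's curve over the peak, which was 200 or more in each list. The authors' −log10 p belongs to the summit position. The deposited adjusted value was a placeholder in every row. Areas and summit values are the authors' own and served only to rank or filter peaks within a list. Lists covered the 22 autosomes, and depth is unknown.

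Starts were those of canonical transcripts of GENCODE release 44 on hg38, and chromosome lengths and names fitted those of the peaks. Promoters spanned 1 kb on either side of a start, and the area was that of the largest peak overlapping it by at least 1 bp. Ranks ran from 0 to 100 among the 12509 genes with a promoter peak in all 3 lists. Words of 32 bases were counted in the whole promoter window over the genome. CpG content and motifs used the hg38 reference from 250 bases before to 50 after each start. Printed promoters came from the RefSeq table, which held 209 of 239 members, 207 with the start used here. Fingers and KRAB boxes were counted in translated canonical transcripts, the KRAB box by a pattern shortened after the planned one had matched 87 members. No test across samples was possible. The tools were Python 3.11.15 with pandas 2.3.3, numpy 2.4.6, matplotlib 3.10.9 and scipy 1.17.1. All 57309 window counts equalled those of bedtools 2.31.1, and the counting was tested on simulated data.

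Named genes were all members with a peak in some lists, the 5 with the highest median rank, per knock-in the 5 largest rises and 5 largest falls in rank against WT, and per cluster the leading member and the longest run without a peak. Members, lists and rules were chosen with earlier results of these data known. Alternatives were other windows and starts, peaks by summit, stricter or equally long lists, other measures of peak strength, a move of 5 points, other cluster gaps and symbols with a letter after the digits, of which there were 6. The shorter KRAB pattern, word uniqueness, other genes in the spans and promoter identity were added after seeing the data.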

Additional observations from a re-analysis of the deposited data

How the results depend on the processing

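No count or median move of members changed sign under an alternative, and no move of 10 points did. With the highest summit value, moves under 10 points changed sign for ZNF581 in E545K (0.30, against -5.48 by area) and ZNF563 in H1047R (7.47, against -1.81 by area). Among counts and medians, 205 alternative values stayed within the spread or within 1.5 times of the value reported, and 17 did not. Some of the 205 could not change, such as the medians when the limit was 5 points. With the highest summit value in place of the area, the median rank of members was 42.3 in E545K, 41.2 in H1047R and 40.0 in WT, and the median move of ZNF101 to ZNF254 was 12.5 in E545K and 9.95 in H1047R. In that setting 22 members were higher and 13 lower in E545K against WT, 14 higher and 14 lower in H1047R against WT, and 17 higher and 11 lower in E545K against H1047R. When a move of 5 points was counted, 35 members were higher (20.8%, beside 17.8% of all genes) and 28 lower (16.7%, beside 20.8%) in E545K against WT. There were 17 higher (10.1%, beside 17.8%) and 39 lower (23.2%, beside 19.4%) in H1047R against WT, and 41 higher (24.4%, beside 17.4%) and 21 lower (12.5%, beside 18.1%) in E545K against H1047R, as a lower limit admits more genes. Members open in WT alone numbered 4 with peaks of area 400 or more and 2 with lists of equal length, against 1. Of the 18 members open in some lists, ZNF93, ZNF737, ZNF442, ZNF253, ZNF506, ZNF878, ZNF69, ZNF569, ZNF155, ZNF577 and ZNF880 kept the same lists in all 6 settings of window, overlap, threshold and start, while ZNF709, ZNF229 and ZNF671 kept them in 4. With 1 list per genotype neither counting error nor replicate spread is known. No paired analysis was possible because each genotype has 1 list made from both samples, and no replicate could be left out for the same reason.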
